A study of Mus musculus with 8 samples.

Results

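Liver X receptors (LXR) are nuclear receptors that bind oxysterols and desmosterol, pair with retinoid X receptors (RXR), and switch on genes that move cholesterol out of the cell. In macrophages, which take up lipid from dead cells and lipoproteins, the best known LXR targets are the exporters ABCA1 and ABCG1, and cholesterol that is not exported is esterified and held in lipid droplets. The 9 genes described here are the receptors Nr1h2 (LXR beta) and Nr1h3 (LXR alpha), the exporters Abca1 and Abcg1, the LXR targets Mylip, Lpcat3, Apoe and Pltp, and Plin2, which encodes a lipid droplet coat protein. They were chosen by symbol for their roles in this pathway, and are 9 of the 34745 genes in the count table. All 9 were among the 14040 genes that passed the filter on low counts.

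Messenger RNA was sequenced from mouse bone-marrow-derived macrophages (BMDM), primary macrophages grown from marrow in M-CSF at 20 ng/ml, in 8 libraries, 2 in each of 4 groups. The groups were wild-type (WT) cells left untreated, WT cells given R848 at 100 ng/ml for 6 h, and KAT8-deficient cells under the same conditions. KAT8 is a histone H4 acetyltransferase, and R848, or resiquimod, activates the endosomal RNA sensor TLR7. The sample titles name the KAT8-deficient cells as a conditional knockout, and do not name the Cre driver, the deleted part of the gene or the age of the mice. Nor do the labels tie the paired libraries to different mice or dishes. Every p-value therefore measures only the spread between these libraries, which may be technical.

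Total counts ran from 18550977 to 21384532 per library, so that the floor of 3 counts stood at 0.14 to 0.163 CPM (each count scaled to the normalised library size). Kat8 was lower in all 4 KAT8-deficient libraries, at 9.76 ± 1.41 against 17.4 ± 0.641 CPM untreated and 10.2 ± 0.307 against 17 ± 1.45 CPM under R848 (SD, n = 2). Its difference was called by the test described below (edgeR adjusted p = 0.0113 and 0.00553), but not untreated without WT untreated replicate 1 or 2 or KAT8-deficient untreated replicate 1 (adjusted p up to 0.0887), nor under R848 without WT R848 replicate 1 (0.0522). The 12 macrophage markers summed to 16200 to 16300 CPM in untreated WT and 15700 to 17100 CPM in R848-treated WT libraries. In KAT8-deficient libraries they summed to 9500 to 10400 CPM untreated and 9260 to 9910 CPM under R848. Without Lyz2, the lysozyme gene that makes up most of that sum, the other 11 stood at 4530 to 4750, 4630 to 4980, 4160 to 4480 and 4060 to 4570 CPM in the same order. The 13 stromal markers, such as Col3a1 and Dcn, summed to 3340 to 3860 CPM in untreated WT and 2910 to 3120 CPM in R848-treated WT libraries. Their sums were 4640 to 4880 CPM in untreated and 4170 to 4240 CPM in R848-treated KAT8-deficient libraries. Of 8 adipocyte markers, Plin1, Cidec, Retn, Cfd and Pck1 had no counts in any library, and the remaining sum, which is mostly Fabp4, was 199 to 350 CPM. The 7 endothelial markers summed to 98.9 to 118 CPM in untreated and 78.5 to 81.1 CPM in R848-treated WT libraries, and to 116 to 126 and 112 to 120 CPM in KAT8-deficient ones. That sum is mostly Kdr and Vwf. Pecam1, Tek and Emcn reached at most 0.163, 0.33 and 0.0535 CPM in any library, and Cdh5 and Egfl7 at most 1.87 and 1.57 CPM. Neutrophil markers summed to at most 8.05 and lymphocyte markers to at most 1.18 CPM. Dendritic cell markers summed to 486 to 617 CPM, which is mostly Itgax (477 to 608 CPM). Zbtb46 reached at most 9.34, Clec9a 0.706, Cd209a 0.14 and Xcr1 0.102 CPM, and Flt3 and Siglech were at 0. These are bulk values, in which fewer cells of a type and less RNA per cell cannot be told apart. Any part of stromal or endothelial cells in the values below was not tested.

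LXR and RXR bind a pair of AGGTCA half-sites that point the same way and lie 4 bases apart (a DR4 element). Such a pair was looked for in promoters of the members. The 2 promoters shown belong to genes that moved in opposite directions under R848. Any link between a match and the direction was not tested. The search for AGGTCA, any 4 bases and AGGTCA again ran over both strands of windows from 250 bases before to 50 bases after RefSeq start sites, and 8 of the 9 members had at least 1 window (11 windows in all). Abcg1 had no window and was not searched, and sites outside these windows were not looked for in any gene. No member window held a match with up to 2 mismatches in the 12 fixed bases, a stringency that 3.02% of all 32841 windows met. The closest match among the members lay in the Abca1 window, with 3 mismatches, a level that 21.9% of all windows reached. It is given below on the strand it was found on, with the half-sites in capitals, and it lies 67 to 52 bases before the start site, counting the start base as 0.
Abca1 match (GRCm38.p6, chr4:53159947-53159962, opposite strand to the gene): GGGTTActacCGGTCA
The 100 bases before the start sites of Abca1 and Plin2 follow, on the strand of the gene, with the fixed bases of each window's closest match in capitals.
Abca1 (GRCm38.p6, chr4:53159896-53159995, minus strand): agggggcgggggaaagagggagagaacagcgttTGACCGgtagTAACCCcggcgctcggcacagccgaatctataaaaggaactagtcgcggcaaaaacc
Plin2 (GRCm38.p6, chr4:86670060-86670159, minus strand): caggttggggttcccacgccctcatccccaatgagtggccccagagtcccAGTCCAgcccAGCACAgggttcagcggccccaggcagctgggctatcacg
The closest match of Plin2 had 4 mismatches, which 76.9% of all windows reached. Both windows held the E-box hexamer CACGTG, as did 7.15% of all windows. It began 147 bases before the start site in Abca1 and 4 bases before it in Plin2. This hexamer was looked for outside the planned DR4 search, and no window of another member held it. These matches describe letters and say nothing of which proteins were bound. Nor does the number of mismatches tell whether a site, such as that of Abca1, is used by LXR.

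Levels were compared between genes per length, as RPKM (CPM per kilobase of merged exons). Apoe, which encodes the lipid carrier apolipoprotein E, had the highest level of the 9 in every group, at 803 to 1410 RPKM over the 8 libraries. It lay above at least 99.75% of the tested genes in each library. Plin2 came next in every group, at 166 to 310.5 RPKM. Pltp, the phospholipid transfer protein gene, stood at 43.2 to 58 RPKM, and Mylip was lowest in every group at 5.65 to 7.16 RPKM. Between them the order depended on treatment. In untreated WT cells Nr1h3 (28.1 RPKM) and Nr1h2 (28) overlapped, as did Abca1 (23.9) and Abcg1 (22.2). Under R848 in WT cells Abca1 (44.2 RPKM) overlapped Pltp (43.5), and Abcg1 (8.4) fell below Lpcat3 (13.9). In untreated KAT8-deficient cells Nr1h2, Nr1h3 and Abca1 overlapped in turn, at 27.5, 26.8 and 26.2 RPKM. Under R848 no neighbours in the order overlapped in KAT8-deficient cells, with Abca1 at 37.1, Nr1h3 at 32.3, Nr1h2 at 22.8, Lpcat3 at 14.2 and Abcg1 at 12.7 RPKM.

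**Figure D1:**
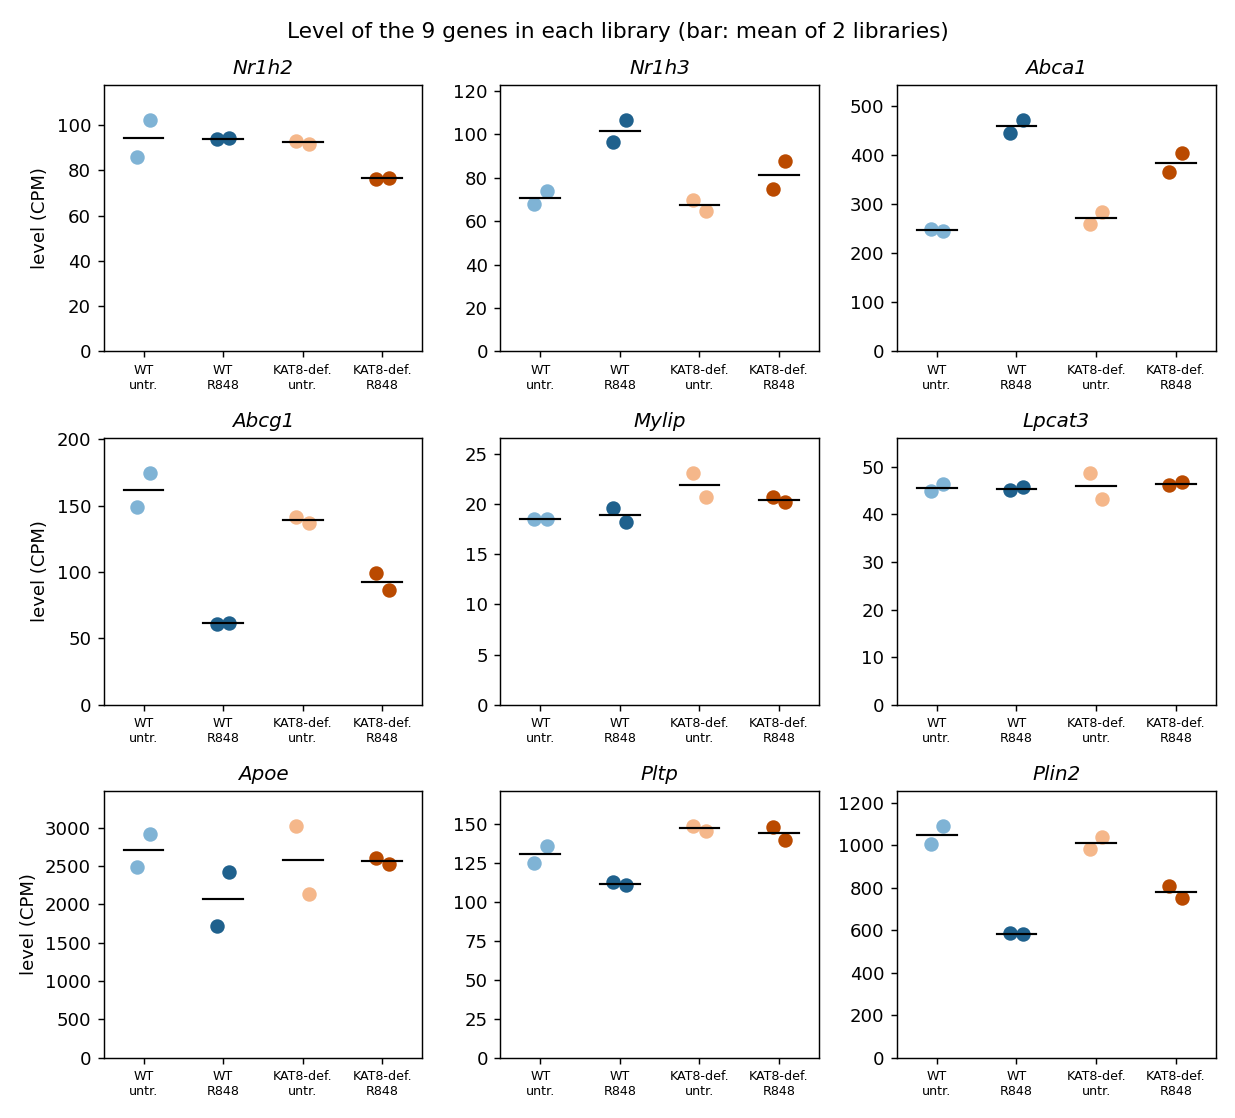
Level in CPM (y axis, from 0) of each of the 9 genes in each of the 8 libraries, by group (x axis: WT and KAT8-deficient, untreated and R848); points are libraries and short lines the mean of 2. Abca1 stands higher and Abcg1 and Plin2 lower in both R848 groups than in their untreated groups, while the Lpcat3 points stay between 43.3 and 48.8 CPM.

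The first comparison asks how R848 changed these genes in WT cells. The exporters went opposite ways: Abca1 rose 1.85-fold and Abcg1 fell 2.64-fold. Nr1h3 rose 1.44-fold and Plin2 fell 1.8-fold. Tests were edgeR's quasi-likelihood test, fitted over all 8 libraries and adjusted over all genes tested (adjusted p under 0.05 is called). By it 4 of 9 members were called, 2 higher and 2 lower, where 13.6% of all genes tested were called, 6.94% higher and 6.7% lower. The members' groups did not overlap for 6 of 9 (2 higher, 4 lower), against 56% of all genes (27.7% and 28.3%). Their median log2 change was -0.01, with -0.002 over all genes.

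Nr1h3 (ENSMUSG00000002108, chromosome 2, 91184061 to 91202834, GRCm38), which encodes the LXR form that macrophages induce, stood at 67.7 and 73.8 CPM in untreated WT libraries and at 96.65 and 106.7 CPM under R848. Both treated libraries lay above both untreated ones (log2 0.52, SE 0.094, edgeR adjusted p = 0.00742). Without WT untreated replicate 1 (log2 0.45, adjusted p = 0.0501) or WT R848 replicate 2 (0.44, adjusted p = 0.0611) the rise was no longer called. Nr1h2 (ENSMUSG00000060601, chromosome 7, 44549616 to 44553951), the widely expressed LXR form, stood at 85.83 and 102.3 CPM untreated against 93.72 and 94.09 CPM under R848. The treated libraries fell inside the untreated range, with a log2 change of 0 (95% interval -0.19 to 0.18). The ratio of Nr1h3 to Nr1h2 per length was 1.05 and 0.962 in the untreated WT libraries and 1.38 and 1.51 in the treated ones.

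Abca1 (ENSMUSG00000015243, chromosome 4, 53030787 to 53159895), which loads cholesterol onto lipid-poor apolipoprotein A-I, stood at 249.7 and 246 CPM untreated against 444.7 and 471.6 CPM under R848. The 2 pairs of libraries were far apart (log2 0.89, SE 0.073, edgeR adjusted p = 0.000173). Abcg1 (ENSMUSG00000024030, chromosome 17, 31057675 to 31117988), which promotes export to mature HDL particles, stood at 148.7 and 174.7 CPM untreated against 61.13 and 61.52 CPM under R848. Its log2 change was -1.4 (SE 0.094, edgeR adjusted p = 9.32e-05), which ranked 274 by size among the 14040 genes tested. The Abca1 to Abcg1 ratio per length went from 1.18 and 0.992 in untreated WT libraries to 5.12 and 5.4 in treated ones.

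Plin2 (ENSMUSG00000028494, chromosome 4, 86648386 to 86670060), whose protein coats lipid droplets, stood at 1006 and 1090 CPM untreated against 585 and 583.1 CPM under R848. The treated libraries lay close together and below both untreated ones (log2 -0.84, SE 0.065, edgeR adjusted p = 0.000143). Pltp (ENSMUSG00000017754, chromosome 2, 164839518 to 164857711) stood at 124.6 and 136.1 CPM untreated against 112.4 and 110.7 CPM under R848. The groups did not overlap, but the log2 difference of -0.22 (95% interval -0.37 to -0.08) missed the threshold, with an edgeR adjusted p of 0.0526. Apoe (ENSMUSG00000002985, chromosome 7, 19696109 to 19699188) stood at 2495 and 2917 CPM untreated against 1717 and 2420 CPM under R848. The spread between the treated libraries was wide, and the log2 difference of -0.39 had a 95% interval of -0.81 to 0.03 (edgeR adjusted p = 0.217).

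Mylip (ENSMUSG00000038175, chromosome 13, 45389742 to 45412022) encodes IDOL, a ubiquitin ligase that marks the LDL receptor for breakdown. It stood at 18.54 and 18.52 CPM untreated against 19.63 and 18.28 CPM under R848, groups that overlapped (log2 0.03, 95% interval -0.19 to 0.25). Lpcat3 (ENSMUSG00000004270, chromosome 6, 124663027 to 124704418) encodes an acyltransferase that places polyunsaturated chains in membrane phospholipids. It stood at 44.92 and 46.43 CPM untreated against 45.07 and 45.69 CPM under R848 (log2 -0.01, 95% interval -0.18 to 0.16). Exons of Lpcat3 share 334 bases with those of Emg1, and exons of Pltp share 495 bases with those of Ctsa, each on the opposite strand. No source used here states a strand setting for the counting, so reads of the partners over those bases cannot be told apart. Emg1 ran from 36.3 to 45.9 CPM, and Ctsa, from 1280 to 1650 CPM, stood far above Pltp. Neither partner was called in any of the 5 comparisons, with edgeR adjusted p no lower than 0.0825 (Ctsa between untreated genotypes). Any share of partner reads in the Lpcat3 and Pltp counts was not tested.

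**Figure D2:**
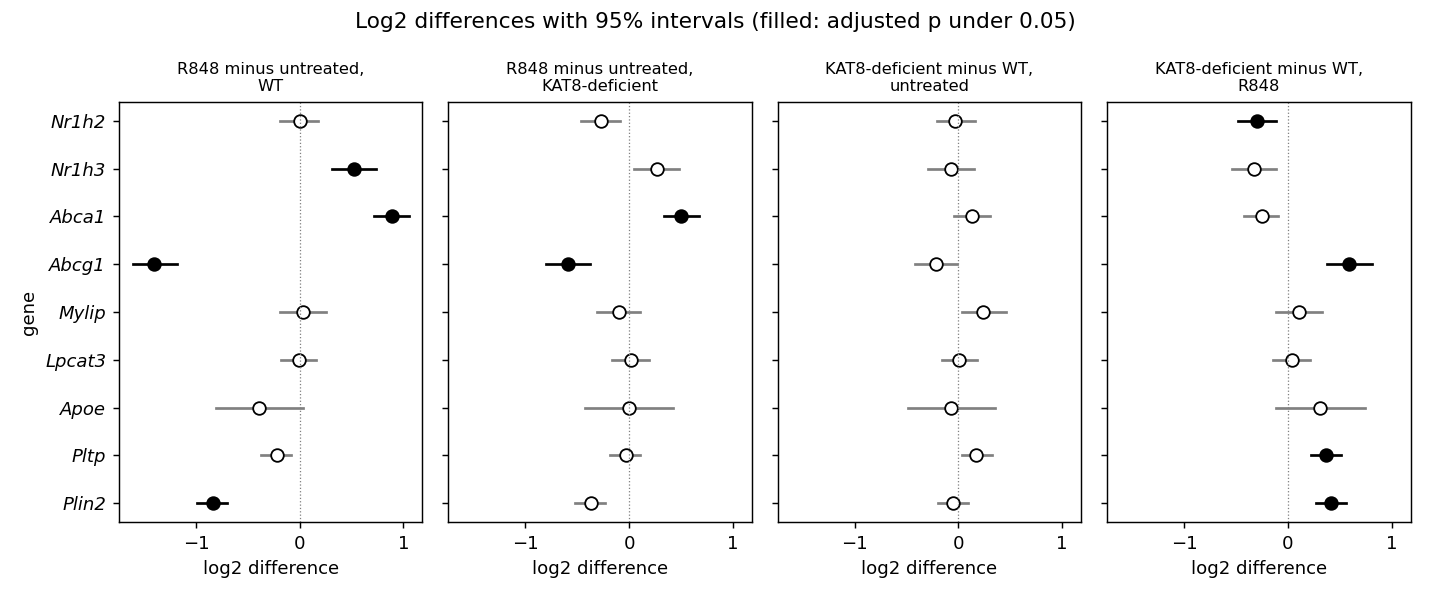
Log2 difference (x axis) of each of the 9 genes (y axis) in 4 comparisons, 1 per panel; points are edgeR estimates, bars 95% intervals, and filled points have an adjusted p under 0.05. Filled points number 4, 2, 0 and 4 from left to right, and Abcg1 lies farthest left in the WT panel at -1.4.

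In the wider lists of lipid genes, calls went in both directions under R848 in WT cells. Over all genes tested, 6.94% were called higher and 6.7% lower there. Of 14 lipid droplet genes tested, 3 fell and 1 rose. Plin3, a second droplet coat gene, fell by 0.49 (SE 0.070), Pnpla2, the triglyceride lipase ATGL, fell by 0.6 (SE 0.093), and the acyl-CoA synthetase gene Acsl4 rose by 0.34 (SE 0.060) on the log2 scale. Of 20 genes for cholesterol uptake, storage and transport, 3 rose and 3 fell. Nceh1, a cholesteryl ester hydrolase, went from 415 ± 18.4 to 276 ± 8.02 CPM, and Soat1, which esterifies cholesterol, from 760 ± 25.2 to 546 ± 28.4 CPM (SD, n = 2). Msr1, the scavenger receptor A gene, rose from 234 ± 20 to 360 ± 20.3 CPM (SD, n = 2). Of 8 PPAR receptor and target genes, Pparg, Fabp4 and Cpt1a fell, by 0.64 (SE 0.085), 0.63 (SE 0.10) and 0.67 (SE 0.055) on the log2 scale. The medians of the 3 lists were -0.05, -0.04 and -0.15, and the 9 genes named from them kept their call without any single library, apart from Acsl4 (adjusted p = 0.0599 without WT R848 replicate 1).

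LXR targets beyond the members were called in both directions, where 13.6% of all genes tested were called. Of 13 tested, only Rnf145, a ubiquitin ligase gene of the sterol pathway, rose (log2 0.45, SE 0.060) and only Mertk, a receptor for dead cells, fell (-0.66, SE 0.093), and the list's median was -0.07. Srebf1, which encodes the lipogenic factor SREBP1, stood at 69.4 ± 3.42 CPM untreated and 63.6 ± 5.3 CPM under R848 (SD, n = 2; edgeR adjusted p = 0.475). Of 14 RXR partners and coregulators, 0 rose and 3 fell, with a median of -0.16. Tbl1xr1, part of the NCoR corepressor complex, went from 62.4 ± 5.99 to 32.8 ± 5.44 CPM (SD, n = 2; edgeR log2 -0.93 with SE 0.12 and adjusted p = 0.00165). Ncoa1 and Rxra, a coactivator and the main RXR of macrophages, had log2 differences of -0.3 and -0.4, called in 4 and 1 of the 8 fits that left out a library, with adjusted p up to 0.164 and 0.223 without WT R848 replicate 1. Among 6 oxysterol enzymes, Ch25h, which makes 25-hydroxycholesterol, rose from 4.16 ± 0.579 to 9.58 ± 0.481 CPM (SD, n = 2; edgeR log2 1.2 with SE 0.19 and adjusted p = 0.0037). Cyp27a1, which makes 27-hydroxycholesterol, had a log2 difference of -0.43 (edgeR adjusted p = 0.0449) and was called in 1 of those 8 fits, with adjusted p = 0.194 without WT R848 replicate 1. Among 8 acyltransferases related to Lpcat3, only Lpcat2 changed, from 25.7 ± 0.619 to 69.9 ± 2.97 CPM (SD, n = 2; edgeR log2 1.44 with SE 0.098 and adjusted p = 9.4e-05). In the same comparison 2 of 12 stromal markers were called higher and 5 lower, with a median of -0.31, and 1 of 4 endothelial markers (Kdr) was lower.

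The second comparison asks the same of KAT8-deficient cells. Abca1 rose 1.42-fold and Abcg1 fell 1.5-fold, the same directions as in WT cells. These were the 2 of 9 members called, 1 higher and 1 lower, where 0.634% of all genes tested were called, 0.499% higher and 0.135% lower. The groups did not overlap for 6 of 9 members (2 higher, 4 lower), against 46.8% of all genes (23.8% and 23%), and the median log2 change was -0.03 (0.002 over all genes).

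Abca1 stood at 259.5 and 283 CPM in the untreated and at 364.3 and 403.6 CPM in the treated KAT8-deficient libraries. The treated pair lay above the untreated pair (log2 0.5, SE 0.072, edgeR adjusted p = 0.03). Abcg1 stood at 141.4 and 136.8 CPM untreated against 99 and 86.08 CPM under R848, again without overlap (log2 -0.59, SE 0.092, edgeR adjusted p = 0.0386). The Abca1 to Abcg1 ratio per length was 1.29 and 1.46 untreated and 2.59 and 3.3 under R848, so all 4 treated libraries of both genotypes lay above all 4 untreated ones.

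**Figure D3:**
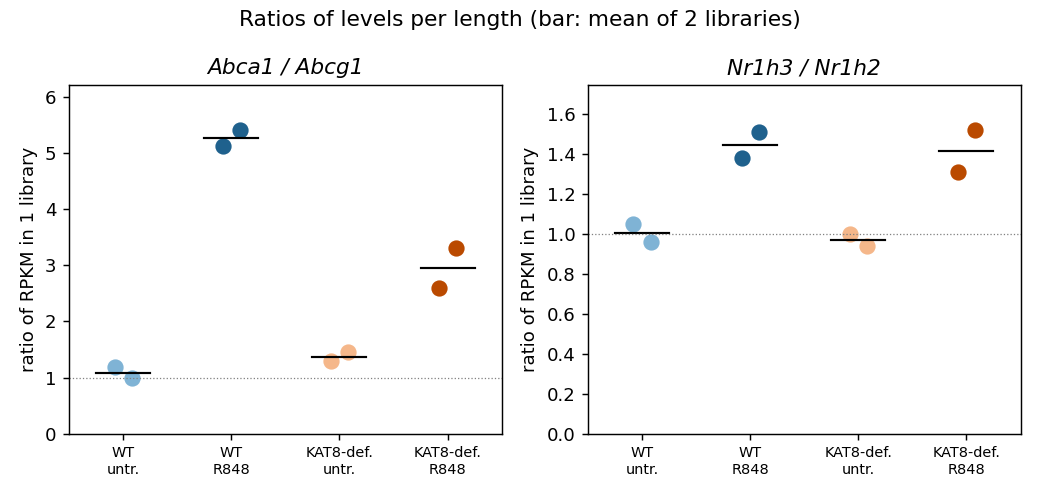
Ratio of RPKM values within each library (y axis, from 0) for Abca1 over Abcg1 and for Nr1h3 over Nr1h2, by group (x axis); points are libraries, short lines the mean of 2, and the dotted line marks a ratio of 1. The Abca1 to Abcg1 ratio is 5.12 and 5.4 in R848-treated WT libraries and 2.59 and 3.3 in R848-treated KAT8-deficient ones.

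Plin2 stood at 980.2 and 1039 CPM untreated against 807.5 and 751.3 CPM under R848. The treated libraries were lower without overlap (log2 -0.37, 95% interval -0.52 to -0.23), and the edgeR adjusted p of 0.05002 lay just past the threshold. In 4 of 8 other ways of processing Plin2 was called, with adjusted p from 0.000675 (DESeq2's Wald test) to 0.0444 (limma-voom). Among those 8 the highest adjusted p was 0.112, by edgeR with only the 4 libraries compared. With each library left out in turn the Plin2 difference ran from -0.43 to -0.32, and most of these fits did not call it. Nr1h3 stood at 69.91 and 64.78 CPM untreated against 74.78 and 87.49 CPM under R848 (log2 0.27, 95% interval 0.05 to 0.48, edgeR adjusted p = 0.26). Nr1h2 stood at 93 and 91.74 CPM untreated against 76.24 and 76.64 CPM under R848, lower without overlap, and was not called (log2 -0.27, 95% interval -0.46 to -0.09, edgeR adjusted p = 0.202). The Nr1h3 to Nr1h2 ratio was 1 and 0.942 untreated and 1.31 and 1.52 under R848.

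The other 4 members showed no called change in KAT8-deficient cells. Apoe stood at 3023 and 2133 CPM untreated, the widest gap within a pair, and at 2610 and 2534 CPM under R848 (log2 0, 95% interval -0.42 to 0.42). Pltp stood at 148.6 and 145.7 CPM untreated against 148 and 139.9 CPM under R848, ranges that overlapped (log2 -0.03, 95% interval -0.18 to 0.11). Mylip stood at 23.14 and 20.7 CPM untreated against 20.69 and 20.23 CPM under R848 (log2 -0.1, 95% interval -0.31 to 0.11). Lpcat3 stood at 48.76 and 43.28 CPM untreated against 46.27 and 46.74 CPM under R848, inside the untreated range (log2 0.02, 95% interval -0.16 to 0.19).

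Few of the wider lipid genes were called in KAT8-deficient cells, where 0.634% of all genes tested were called. Mgll, the monoacylglycerol lipase gene, was the only one of 14 lipid droplet genes to change, from 22.1 ± 0.263 to 57 ± 0.329 CPM (SD, n = 2; edgeR log2 1.36 with SE 0.074 and adjusted p = 0.000464). Lpcat2 was the only one of 8 acyltransferases, at 20 ± 2.56 and 36 ± 2.39 CPM (SD, n = 2; edgeR log2 0.85 with SE 0.10 and adjusted p = 0.023). Hsd3b7, a bile acid enzyme that clears oxysterols, was the only one of 6 oxysterol enzymes (log2 -1.36, SE 0.21, edgeR adjusted p = 0.0386), and its count is uncertain. Its exons share 1717 bases with those of the gene model Gm49388 on the same strand, which had 0 to 1312 counts per library. No gene was called among 13 other LXR targets, 14 RXR partners and coregulators, 20 cholesterol genes or 8 PPAR genes, whose medians were 0.01, -0.06, -0.01 and -0.07. The calls of Abca1 and Abcg1 were both lost without WT R848 replicate 1 (adjusted p = 0.0668 and 0.0816) or 2 (0.0671 and 0.08), KAT8-deficient untreated replicate 1 (0.226 and 0.234) or 2 (0.0898 and 0.126), or KAT8-deficient R848 replicate 2 (0.12 and 0.158). They were also lost with only the 4 libraries compared (0.0944 and 0.09), and Lpcat2 and Hsd3b7 were likewise lost without at least 1 library (adjusted p up to 0.123 and 0.234 without KAT8-deficient untreated replicate 1).

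**Figure D4:**
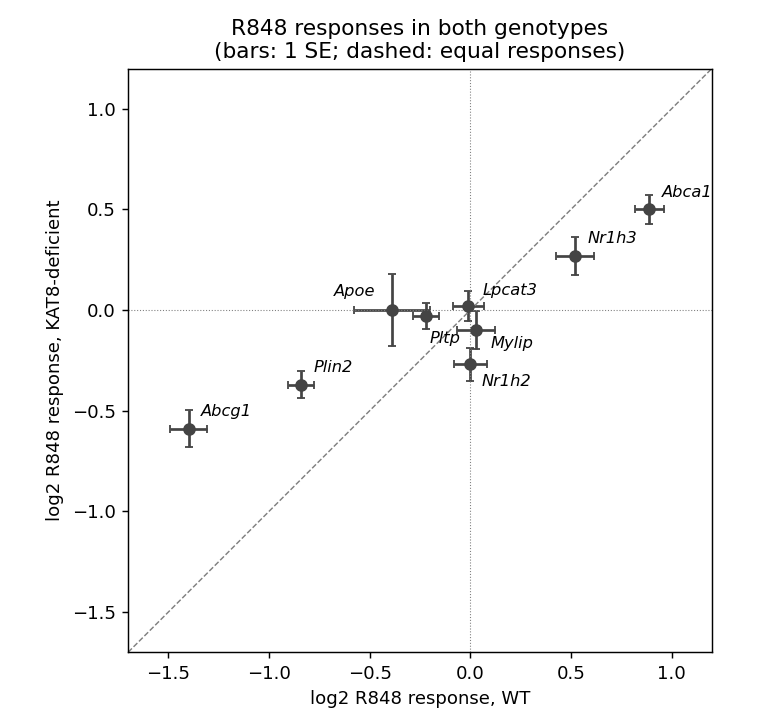
Log2 R848 response in WT (x axis) against KAT8-deficient cells (y axis) for the 9 genes; points are edgeR estimates, bars 1 standard error, and the dashed line marks equal responses. Abca1 lies at 0.89 on the x axis and 0.5 on the y axis, and Abcg1 at -1.4 and -0.59.

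The third comparison asks whether KAT8 deficiency changed these genes before stimulation. None of the 9 passed edgeR's test, where 4.27% of all genes tested did (2.91% higher, 1.36% lower), and the members' median log2 difference was -0.03 (-0.007 over all genes). At an unadjusted p under 0.05 there were 3 (Abcg1, Mylip and Pltp), and DESeq2's Wald test and limma-voom each called 0. The groups did not overlap for 4 of 9 members (3 higher, 1 lower), against 50.4% of all genes (24.9% and 25.5%). The receptors overlapped their WT values, with log2 differences of -0.03 for Nr1h2 (95% interval -0.21 to 0.16) and -0.07 for Nr1h3 (-0.29 to 0.15). Of the exporters, Abca1 stood higher (0.13, 95% interval -0.04 to 0.3) and Abcg1 lower (-0.22, -0.42 to -0.01) in both KAT8-deficient libraries. Neither exporter passed the test (edgeR adjusted p = 0.363 and 0.226). For Plin2 the difference was -0.05 (95% interval -0.2 to 0.09), for Lpcat3 0.01 (-0.16 to 0.18) and for Apoe -0.07 (-0.49 to 0.35). Mylip (0.24, 95% interval 0.03 to 0.46, edgeR adjusted p = 0.197) and Pltp (0.17, 0.03 to 0.32, edgeR adjusted p = 0.172) stood higher in both KAT8-deficient libraries without passing the test.

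Of the other lipid genes in untreated cells, 2 of 13 LXR targets were called and both were higher in KAT8-deficient cells. Over all genes tested, 4.27% were called. Cd5l, a secreted macrophage protein that curbs lipid synthesis, stood at 46.8 ± 4.01 against 30.5 ± 1.49 CPM (SD, n = 2; edgeR log2 0.61 with SE 0.096 and adjusted p = 0.0127). Fasn, fatty acid synthase, was the other, at 237 ± 2.6 against 185 ± 19.2 CPM (SD, n = 2; edgeR log2 0.36 with adjusted p = 0.0429). Mgll was lower at 22.1 ± 0.263 against 93.1 ± 4.88 CPM (SD, n = 2; edgeR log2 -2.07 with SE 0.074 and adjusted p = 7.05e-06), and Acsl1, an acyl-CoA synthetase gene, at 38.4 ± 0.893 against 79.9 ± 3.39 CPM (SD, n = 2; edgeR log2 -1.06 with adjusted p = 0.0448). No gene was called among 20 cholesterol, 14 RXR and coregulator, 8 acyltransferase or 8 PPAR genes. In the same comparison 9 of 12 stromal markers were higher and 0 lower, with a median of 0.47. Mgll alone kept its call without any single library, and the highest adjusted p of the others was 0.102 for Cd5l, 0.19 for Fasn and 0.236 for Acsl1, each without KAT8-deficient untreated replicate 1.

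The fourth comparison asks how the genotypes differed under R848. Abcg1 was 1.51-fold, Plin2 1.33-fold and Pltp 1.29-fold higher in KAT8-deficient than in WT cells, and Nr1h2 was 1.23-fold lower. In all 4 of 9 members were called, 3 higher and 1 lower, where 13.6% of all genes tested were called, 8.14% higher and 5.47% lower. The 2 groups did not overlap for any of the 9 members (6 higher and 3 lower in KAT8-deficient cells), against 59.4% of all genes (29.2% and 30.3%). The R848-treated WT libraries also enter the WT response above, so these differences and that response are not independent of each other.

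Abcg1 stood at 61.13 and 61.52 CPM in WT and at 99 and 86.08 CPM in KAT8-deficient cells under R848. Its difference was the largest of the 9 (log2 0.59, SE 0.093, edgeR adjusted p = 0.00405). Plin2 stood at 585 and 583.1 against 807.5 and 751.3 CPM (log2 0.42, SE 0.065, edgeR adjusted p = 0.00394). Pltp stood at 112.4 and 110.7 against 148 and 139.9 CPM (log2 0.37, SE 0.064, edgeR adjusted p = 0.00668). These 3 were called whichever library was left out, Pltp with an adjusted p of up to 0.0499. Ctsa, which shares exon bases with Pltp, differed by 0.16 in the same direction and was not called (SE 0.069, edgeR adjusted p = 0.17). Any share of its reads in the Pltp difference was not tested.

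The receptors and Abca1 stood lower. Nr1h2, at 93.72 and 94.09 against 76.24 and 76.64 CPM, was called (log2 -0.3, SE 0.082, edgeR adjusted p = 0.0467). Nr1h3, at 96.65 and 106.7 against 74.78 and 87.49 CPM (log2 -0.33, 95% interval -0.54 to -0.11), and Abca1, at 444.7 and 471.6 against 364.3 and 403.6 CPM (-0.25, -0.42 to -0.09), just missed, with edgeR adjusted p of 0.0528 and 0.0503. All 3 lie near the threshold. Nr1h2 was called in 2 of the 8 fits that left out a library (adjusted p up to 0.173 without WT R848 replicate 1), and Nr1h3 and Abca1 were both called in 6 of 8 other ways of processing, for example with DESeq2's Wald test (0.0398 and 0.0354), by which Nr1h2 was not (0.0535). Of the 8 fits that left out a library, Nr1h3 and Abca1 were each called in 1, that without KAT8-deficient R848 replicate 2, and their adjusted p reached 0.252 and 0.25. The remaining members were not called: Apoe differed by 0.31 (95% interval -0.11 to 0.74), Mylip by 0.11 (-0.11 to 0.33) and Lpcat3 by 0.04 (-0.14 to 0.21).

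The lists were counted in the same way between the genotypes under R848, where the WT libraries are again those of the WT response. Over all genes tested, 8.14% were called higher and 5.47% lower. Of 20 cholesterol genes 3 were higher and 1 lower, with Nceh1 at 387 ± 24.3 against 276 ± 8.02 CPM (SD, n = 2; edgeR log2 0.49 with SE 0.069 and adjusted p = 0.0024). Soat1 was higher by 0.25 (SE 0.063) and Msr1 lower, at -0.31 (SE 0.073). Of 8 PPAR genes 3 were higher, with Cpt1a, which admits fatty acids to mitochondria, at 128 ± 3.48 against 91.7 ± 0.848 CPM (SD, n = 2; edgeR log2 0.49 with SE 0.055 and adjusted p = 0.00101), Fabp4 at 0.46 (SE 0.10) and Pparg at 0.34 (SE 0.085). Of 14 lipid droplet genes Plin3 was higher, by 0.39 (SE 0.070), and Mgll lower, at -0.77 (SE 0.070). Among 14 RXR partners and coregulators Tbl1xr1 was higher, at 63.4 ± 0.609 against 32.8 ± 5.44 CPM (SD, n = 2; edgeR log2 0.95 with SE 0.12 and adjusted p = 0.00179), as was Tbl1x, of the same complex, by 0.3 (SE 0.065). Of 13 other LXR targets Cd5l (0.66, SE 0.096), Scd2 (0.4, SE 0.077) and Fasn (0.38, SE 0.080) were higher. The 1 that was lower was Rnf145 (-0.28, SE 0.060), which was named after its values were seen. Whether the Rnf145 call held without single libraries was not examined. Lpcat2 was lower by a log2 difference of -0.96 (SE 0.096) and Hsd3b7 by one of -0.94 (SE 0.21). Of these genes Nceh1, Cpt1a, Mgll, Tbl1xr1, Cd5l and Lpcat2 were called whichever library was left out. Another 9 lost their call without WT R848 replicate 1, and all but Plin3 of them also without some other library. Without WT R848 replicate 1 the adjusted p was 0.0678 for Soat1, 0.159 for Msr1, 0.0784 for Fabp4, 0.0541 for Pparg, 0.0608 for Plin3, 0.0773 for Tbl1x, 0.0871 for Scd2, 0.116 for Fasn and 0.0614 for Hsd3b7. In this comparison 9 of 12 stromal markers were higher, 1 was lower and their median was 0.42, and 4 of 11 macrophage markers were lower and 1 higher. Of 4 endothelial markers tested 2 were higher (Kdr and Vwf), with a median of 0.38.

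The interaction asks whether the R848 response itself differed between the genotypes. By edgeR 0 of 9 members passed the interaction test, where 0.228% of all genes tested did (0.057% higher, 0.171% lower). The difference in response was 0.81 for Abcg1 (SE 0.13, edgeR adjusted p = 0.0545), 0.47 for Plin2 (SE 0.092, edgeR adjusted p = 0.0776), -0.38 for Abca1 (SE 0.10, edgeR adjusted p = 0.173) and -0.25 for Nr1h3 (SE 0.13, edgeR adjusted p = 0.525). At an unadjusted p under 0.05 there were 4 members (Nr1h2, Abca1, Abcg1 and Plin2). DESeq2's Wald test called Abcg1 (adjusted p = 8.47e-05) and Plin2 (0.00702), and limma-voom called 0. With each library left out in turn, the edgeR difference ran from 0.7 to 0.93 for Abcg1 and from 0.42 to 0.54 for Plin2. Abcg1 did not pass in most of those fits, nor Plin2 in any. For the other 5, the 95% intervals were -0.54 to -0.01 for Nr1h2, -0.44 to 0.17 for Mylip, -0.22 to 0.27 for Lpcat3, -0.21 to 0.98 for Apoe and -0.01 to 0.4 for Pltp.

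Likeness was sought among 10192 genes with a mean of at least 5 CPM and no predicted or clone name, such as Gm or Rik names. Among these, the genes most like 3 of the members across the 8 libraries were ranked by the Pearson correlation of log2 CPM. For Abca1 they were Slc4a7, a bicarbonate cotransporter (r = 0.995), Rbpj, the DNA-binding factor of Notch signalling (0.99), and Pou2f2, the transcription factor OCT2 (0.99). For Abcg1 they were Itgb5, an integrin subunit (0.993), Mettl7a1 (0.992) and Arhgef18 (0.992). For Plin2 they were B3gnt8, a glycosyltransferase (0.995), Arhgef18 again (0.994) and Otulinl (0.993). Between 314 and 348 genes reached 0.9 with each of the 3. The 8 libraries fall into 4 groups, so the values describe likeness of group patterns and carry no test.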

How the data were processed

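The authors deposited 1 table of raw counts, with Ensembl genes as rows and libraries as columns. The submitters' processing notes name mm10, HISAT2, StringTie 1.3.0 and edgeR without saying what each did, and no source used here gives the annotation, the counting or the strand setting. All 8 columns matched a sample by name, and 0 were left over. Symbols, coordinates and merged exon lengths came from GENCODE M21 (GRCm38, the build of mm10): 34267 of 34745 identifiers had a symbol. Promoter windows came from RefSeq (GRCm38.p6).

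Genes were filtered with filterByExpr (14040 kept, with 99.95% of all counts), normalised by TMM and fitted with edgeR 4.0.16 (quasi-likelihood, 1 mean per group, 4 residual degrees of freedom, Benjamini-Hochberg over all genes tested, threshold 0.05, two-sided). Each standard error was the size of the log2 difference divided by the root of F. Floors cover counting error only. The code was tested on simulated data. Named genes were the 9 members, Kat8, up to 3 called genes per list with the smallest adjusted p and the 3 genes most like Abca1, Abcg1 and Plin2. Srebf1, and Rnf145 between the genotypes under R848, were named after their values were seen. Cell type markers that met the rule are given mainly as counts and sums, and Camp, at under 1 CPM, is not described. A gene of the lists that met the rule is not reported here. The members and lists were chosen with earlier results of these data known. Alternatives were DESeq2 1.42.0 size factors and Wald test, 2 other filters, limma-voom (limma 3.58.1), robust estimation, a replicate block, only the 4 libraries compared, and leaving out each library.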

Additional observations from a re-analysis of the deposited data

Results flagged for a closer look

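In 2 genes of the wider lists the R848 response differed between the genotypes by edgeR's interaction test, and neither is one of the 9 members. Mgll rose in KAT8-deficient cells from 22.1 ± 0.263 to 57 ± 0.329 CPM and stood at 93.1 ± 4.88 and 97 ± 5.56 CPM in WT cells (SD, n = 2), a difference in response of 1.31 (SE 0.10, edgeR adjusted p = 0.00291). Vcam1, an adhesion molecule in the stromal list, rose in both genotypes, from 50 ± 1.51 to 153 ± 0.191 CPM in WT and from 67.9 ± 1.89 to 111 ± 16.6 CPM in KAT8-deficient cells (SD, n = 2), a difference of -0.91 (SE 0.13, edgeR adjusted p = 0.0446). The Vcam1 difference was called in 2 of the 8 fits that left out a library, with an adjusted p of up to 0.159 without KAT8-deficient untreated replicate 2.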

How the results depend on the processing

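Limits: with 2 libraries a group, calls near the threshold moved with the processing. Plin2, not called for R848 in KAT8-deficient cells, was called there with no filter on low counts, DESeq2's Wald test, robust estimation of the spread and limma-voom. For R848 in KAT8-deficient cells the number of members called went from 2 to 1 with the replicate block (Abca1) and to 0 with only the 4 libraries compared, and ran from 0 to 3 when each library was left out. For the interaction it went from 0 to 2 with no filter on low counts, with the DESeq2 Wald test and with robust estimation of the spread (Abcg1 and Plin2 each time), and ran from 0 to 1 without each library. The counts for R848 in WT, 3 to 5 members, and for the genotypes under R848, 3 to 6, stayed within 1.5 times the main count of 4, and the untreated genotype count stayed at 0. Some values that were not called changed sign when a library was left out, over these ranges: Nr1h2 in WT -0.14 to 0.12 and Apoe in KAT8-deficient cells -0.23 to 0.27 (both at 0 with all libraries, and at 0.01 and 0.02 by limma-voom), Mylip in WT -0.02 to 0.07, Lpcat3 in KAT8-deficient cells -0.07 to 0.1, Pltp there -0.07 to 0.01, between untreated genotypes Lpcat3 -0.08 to 0.09, Nr1h2 -0.15 to 0.1 and Apoe -0.34 to 0.16, Lpcat3 in the interaction -0.06 to 0.12, and Kat8 -0.12 to 0.04 in WT, -0.09 to 0.21 in KAT8-deficient cells and -0.04 to 0.25 in the interaction. The cause of these changes was not tested. Same-numbered libraries did not deviate together (correlations of deviations from -0.082 to 0.054 between groups), so the numbers were not taken as pairs. With the replicate block the genes called over the whole table went from 1916 to 1875 for R848 in WT, 89 to 73 in KAT8-deficient cells, 600 to 531 between untreated genotypes, 1911 to 1871 under R848 and 32 to 25 for the interaction. The 89 became 274 with no filter, 230 with DESeq2, 158 with robust estimation and 22 with only the 4 libraries compared, the 600 became 378 with only those compared, and the 32 became 245, 211 and 148 with no filter, DESeq2 and robust estimation. Leaving out a library took the counts as low as 877 (WT, without WT R848 replicate 1), 2 (KAT8-deficient) and 67 (untreated genotypes; both without KAT8-deficient untreated replicate 1), 797 (under R848, without WT R848 replicate 1) and 6 (interaction, without KAT8-deficient untreated replicate 1).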
